A study of Mus musculus with 10 samples.

Results

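The proteasome subunit mRNAs were followed in mouse embryonic fibroblasts across 6 groups, formed by 2 serum states and 3 pools of RNA, on 10 Affymetrix arrays. Members were the probe sets (sets of short oligonucleotides that together report 1 transcript) whose platform annotation gives a single symbol made of Psm, a letter from a to g and a number. This pattern took 58 probe sets of 46 genes out of 12488 probe sets on the array. Of these, Psmc3ip and Psme3ip1 are not proteasome components and were kept apart, which left 56 probe sets of 44 genes. A pair of probe sets annotated to both Psme2 and Psme2b fell outside the pattern, so Psme2 was not analysed here.

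The cells were primary fibroblasts from e14.5 embryos of C57/BLACK6 background, and every group carried the same ATF1 +/- genotype. All cultures were kept for 48 h in 1% dialyzed FBS (fetal bovine serum). Starved cultures then spent 2 h in 1% FBS and serum-treated cultures 2 h in 10% FBS. Cytoplasmic RNA came from cultures without cycloheximide, with 1 array for each serum state. For the other pools the cells received cycloheximide, which arrests ribosomes on mRNA, at 100 ug/ml for 30 min, and the lysate was separated on a sucrose gradient. Undertranslated RNA carried no ribosome, a ribosomal subunit or a single ribosome, and polyribosome RNA carried several; each had 2 arrays per serum state. In both gradient pools, the cultures behind replicate 2 had also been given 200 uM 4-thiouridine and tritiated cytidine. Equal fractions of biological and technical replicates were pooled before hybridization, and nothing shows how far the arrays of a group are independent, so p-values measure the spread between these arrays only. Cytoplasmic RNA differs from both gradient pools in cycloheximide as well as in ribosome loading, and these cannot be told apart.

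The proteasome degrades proteins tagged with ubiquitin. Its core particle is a barrel of outer alpha rings and inner beta rings, whose beta subunits hold the proteolytic sites. The regulatory particle that caps the barrel has a ring of ATPases, which unfold substrates, and non-ATPase subunits, which bind ubiquitin and remove it. Dedicated chaperones assemble both particles, and in cells exposed to interferon 3 immunoproteasome subunits replace the constitutive catalytic ones.

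The arrays differed in brightness. The median intensity was 5.7 to 8.8 on undertranslated arrays, 19.1 and 19.2 on cytoplasmic arrays and 45.3 to 54.25 on polyribosome arrays. Background was taken as the brightest of 19 control probe sets for RNAs that were not added, and 43.4% to 53.5% of probe sets exceeded it on undertranslated arrays against 68.0% to 73.5% on polyribosome arrays. Replicates correlated with r of 0.792 (serum-treated undertranslated) to 0.969 across probe sets, which are not independent. Fibroblast markers exceeded background in 14 to 16 of 17 probe sets on every array. The ratio of 3′ to 5′ Actb probe sets, a measure of RNA length after amplification, was 137 and 61.4 on the starved undertranslated arrays, 23.6 and 33.9 on the serum-treated undertranslated arrays and 11.5 to 21.1 on the others. The same ratio for Gapdh ran the other way, at 3.70 to 6.81 on undertranslated, 6.11 to 20.9 on polyribosome and 28.4 and 47.03 on cytoplasmic arrays. The part of RNA length, brightness or cross-hybridization in the results was not tested. Differences are on the scale of log2(intensity + 1.5) after quantile normalization, which gives every array the same distribution, so each is relative to the other transcripts of its pool. The scale understates the differences of dim probe sets.

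Proteasome mRNAs ranked high in every pool. The median member stood at the 83.1 and 85.2 percentile of the cytoplasmic arrays and between the 85.0 and 87.0 percentile of the polyribosome arrays. On the undertranslated arrays it stood at 72.7 and 76.8 (starved) and at 63.1 and 72.8 (serum-treated), below the other pools on all 4 arrays. Members exceeded background in 31 to 42 of 56 probe sets there and in 47 to 51 on the other arrays.

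**Figure D1:**
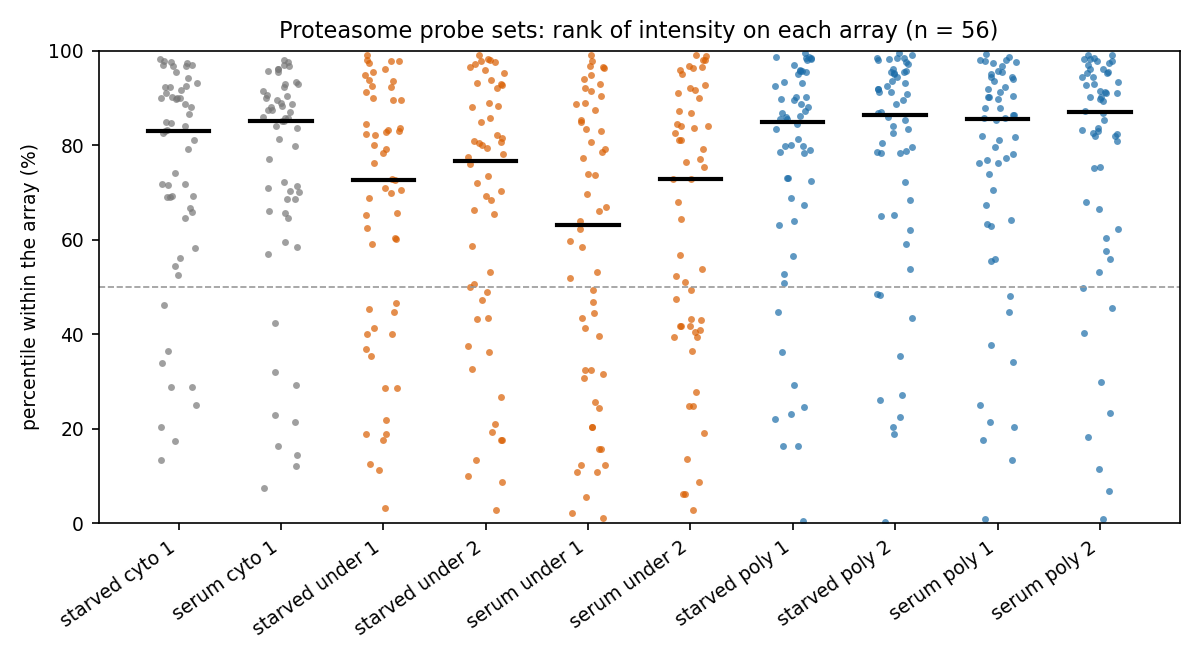
Percentile of each of the 56 proteasome probe sets within each of the 10 arrays (vertical axis, %), by array (horizontal axis; cyto, under and poly stand for cytoplasmic, undertranslated and polyribosome RNA, and the number is the replicate). Points are probe sets, black bars are medians and the dashed line is the middle of the array; the medians of the undertranslated arrays, 63.1 to 76.8, lie below those of the other arrays.

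Proteasome mRNAs were mostly higher in polyribosome than in undertranslated RNA. Of 52 member probe sets tested, 30 were higher and 7 lower at an adjusted p under 0.05 with both serum states averaged (limma on 8 arrays, Benjamini-Hochberg over 9316 probe sets, two-sided). Of all probe sets tested 54.1% were called, 28.8% higher and 25.3% lower, so the higher share of members, 57.7%, stood above the background and the lower share, 13.5%, below it. The median member difference was 1.16 log2 units against 0.05 for all probe sets. Many higher calls were of members dim in undertranslated RNA. Among probe sets above background on all 8 gradient arrays, a restriction added after seeing the data, 12 members were higher and 6 lower (69.3% of all called). It kept 12 of the 30 higher calls and 5 of the 7 lower ones. By gene, 27 of 43 had a higher probe set, 7 a lower one and 11 neither, and Psmb5 and Psmd11 had both. With arrays centred on their medians, 5 of the 7 lower calls and all 30 higher calls were kept. Of the lower calls not kept, Psmd1 turned from -0.47 to 1.24 and passed as higher (limma adjusted p = 0.000489). Psmd2 was too dim to be tested in that setting. On values as deposited or centred on hybridization controls the median of all probe sets moved to 3.02 and 3.33, an upward shift shared by all probe sets under which none of the 7 lower calls was kept, so values given below as deposited are to be read against that median.

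**Figure D2:**
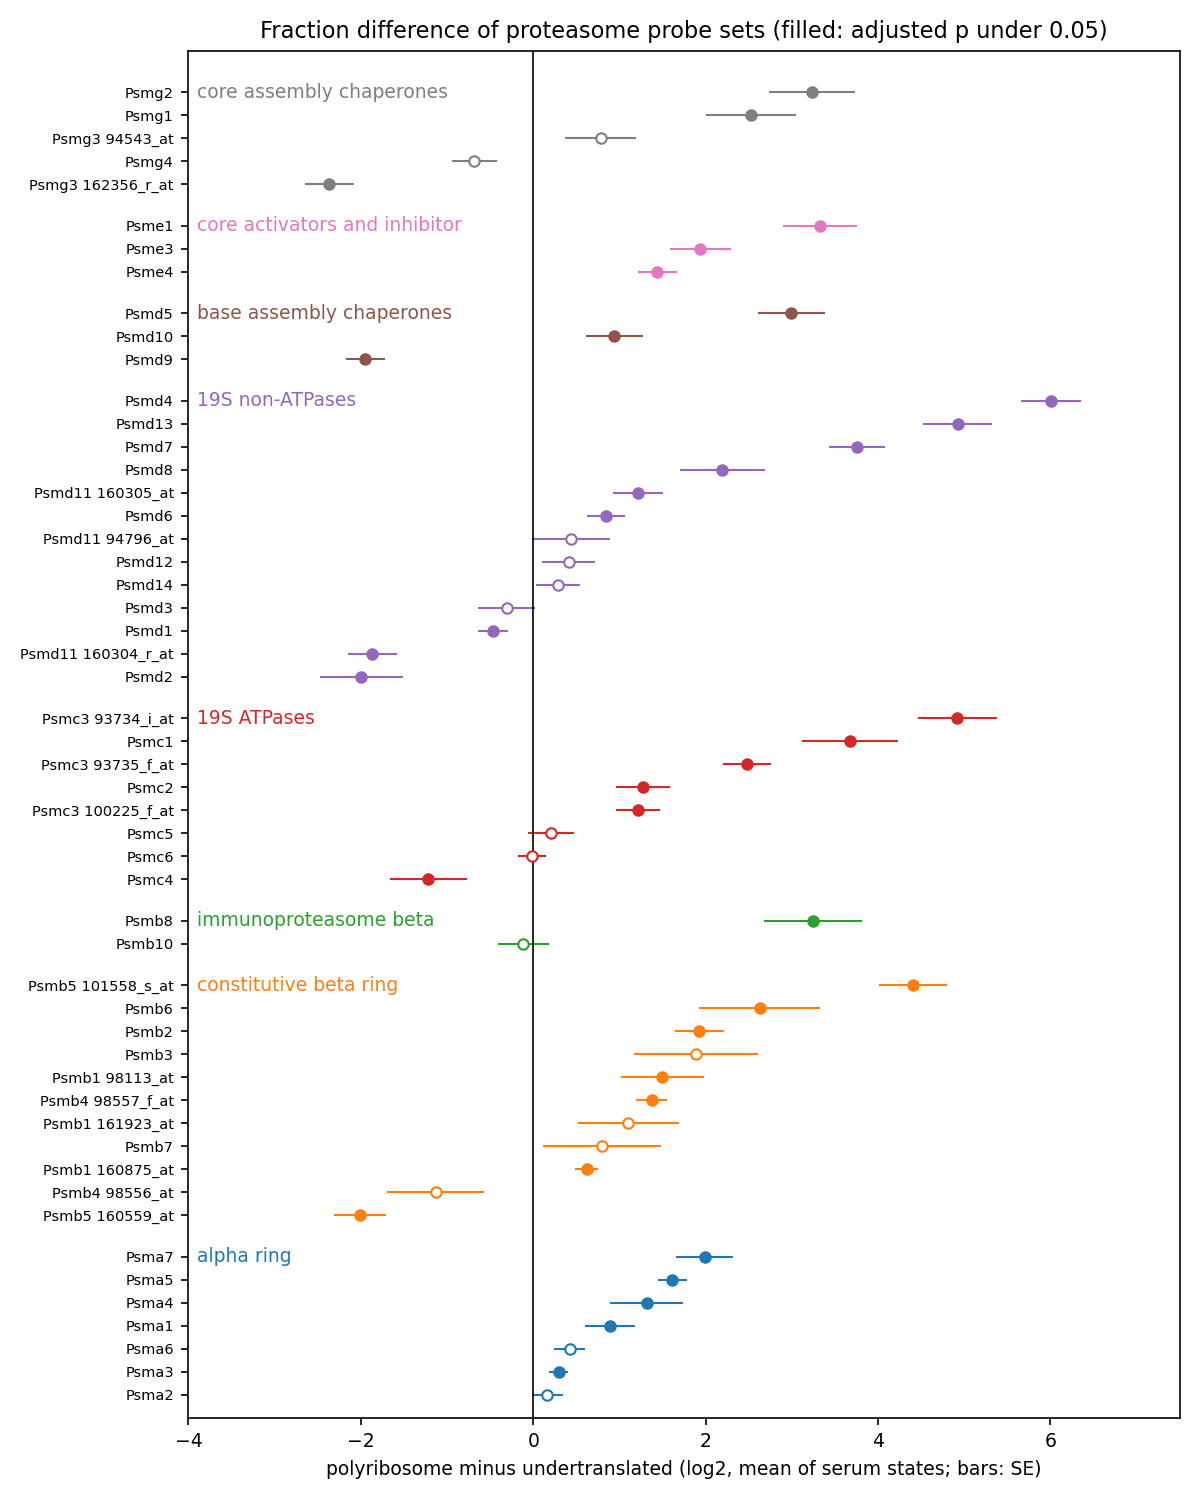
Polyribosome minus undertranslated difference (horizontal axis, log2, mean of both serum states) of the 52 tested proteasome probe sets, grouped by role (vertical axis; 19S marks the regulatory particle); bars are standard errors and filled points have an adjusted p under 0.05 (limma). Most roles spread on both sides of 0, from -2.37 (Psmg3) to 6.00 (Psmd4), while the 7 alpha ring probe sets and the 3 core activator probe sets all lie above 0.

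The alpha ring forms the gate of the core particle. All 7 of its probe sets (Psma1 to Psma7) lay above 0 and 5 were higher, with a median of 0.89. Psma7 had intensities of 16.3 and 22.0 in starved and 10.7 and 7.8 in serum-treated undertranslated RNA, against 756.6, 671.2, 526.8 and 733.7 in polyribosome RNA, and differed by 1.99 ± 0.33 (SE; limma adjusted p = 0.00142). Psma5 differed by 1.61 ± 0.17 (limma adjusted p = 0.000155). The brightest alpha member, Psma3, had intensities of 226.6 to 762.3 in undertranslated and 5126.7 to 6226.1 in polyribosome RNA, yet its scaled difference was 0.30 ± 0.11 (limma adjusted p = 0.0459). Psma2 (0.16) and Psma6 (0.42) did not pass. The call of Psma3 was lost when any 1 of the 8 gradient arrays was left out. Raw intensities of each alpha ring probe set were higher on every polyribosome array than on any undertranslated array, as was the median of the arrays. On values as deposited 92.3% of all probe sets were called in this comparison, so this was not particular to the alpha ring.

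The constitutive beta ring holds the catalytic subunits Psmb5 (chymotrypsin-like), Psmb6 (caspase-like) and Psmb7 (trypsin-like). Of 11 tested probe sets of 7 genes, 6 were higher and 1 lower, with a median of 1.37. Psmb6 read 29.3 and 86.8 in starved and 2.5 and 28.0 in serum-treated undertranslated RNA, against 1626.8, 1942.9, 1807.4 and 2001.9 in polyribosome RNA. The polyribosome values lay close together and the undertranslated values did not; the difference was 2.63 ± 0.70 (limma adjusted p = 0.013), and 2.30 without starved undertranslated replicate 1, where it did not pass. Psmb7 differed by 0.80 ± 0.68 and did not pass (limma adjusted p = 0.349), with 2.6 on serum-treated undertranslated replicate 1 against 24.6 to 32.8 on the other undertranslated arrays. Without serum-treated undertranslated replicate 2, Psmb7 passed at 1.74, and without replicate 1 of that group it was at -0.15. Psmb2 was higher by 1.93 ± 0.28. Psmb3 differed by 1.88 ± 0.72 and did not pass (limma adjusted p = 0.0535).

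The probe sets of Psmb5 disagreed. Probe set 101558_s_at read 6.7 and 8.8 (starved) and 1.2 and 5.3 (serum-treated) in undertranslated RNA, 887.9, 1096.2, 836.6 and 1222.0 in polyribosome RNA, and 171.0 and 208.8 in cytoplasmic RNA. Probe set 160559_at read 15.6, 20.6, 19.5 and 20.7 in undertranslated RNA, 56.6, 41.4, 34.8 and 35.6 in polyribosome RNA, and 24.9 and 27.5 in cytoplasmic RNA. The first thus spanned a wide range and the second a narrow one. After scaling, 101558_s_at was higher in polyribosome RNA by 4.41 ± 0.40 (limma adjusted p = 8.62e-05), although it exceeded background on only 1 of the 4 undertranslated arrays. Probe set 160559_at was lower by 2.01 on the log2 scale, a difference of -2.01 ± 0.30 (limma adjusted p = 0.000834), but higher by 1.06 on values as deposited. Their measured differences lay 6.42 apart.

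Other genes had probe sets over 1 log2 unit apart. The 3 probe sets of Psmc3 were all higher, by 1.21, 2.48 and 4.92. Those of Psmd11 differed by -1.87 (160304_r_at), 1.21 (160305_at, below background in undertranslated RNA and bounded as at least 1.85-fold) and 0.44 (94796_at), and only the last did not pass (it did, at 0.95, without serum-treated undertranslated replicate 2), although 160304_r_at was at 1.69 on values as deposited. Psmg3 gave -2.37 (162356_r_at, intensities of 31.9 to 36.3 in undertranslated and 56.3 to 102.2 in polyribosome RNA, and a difference of 1.12 on values as deposited) and 0.78 (94543_at, not passed). Psmb4 gave 1.37 (98557_f_at) and -1.13 (98556_at, which passed at -1.58 without that replicate and at -1.79 with median centring, but was at 0.67 on values as deposited), and its remaining probe set, 98558_r_at, was too dim to test. The 3 probe sets of Psmb1 lay 0.87 apart, from 0.62 to 1.50. By the array's naming, the letters s, f, i and r before the last part of a name mark probe sets built under relaxed rules, some of them shared among transcripts.

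**Figure D3:**
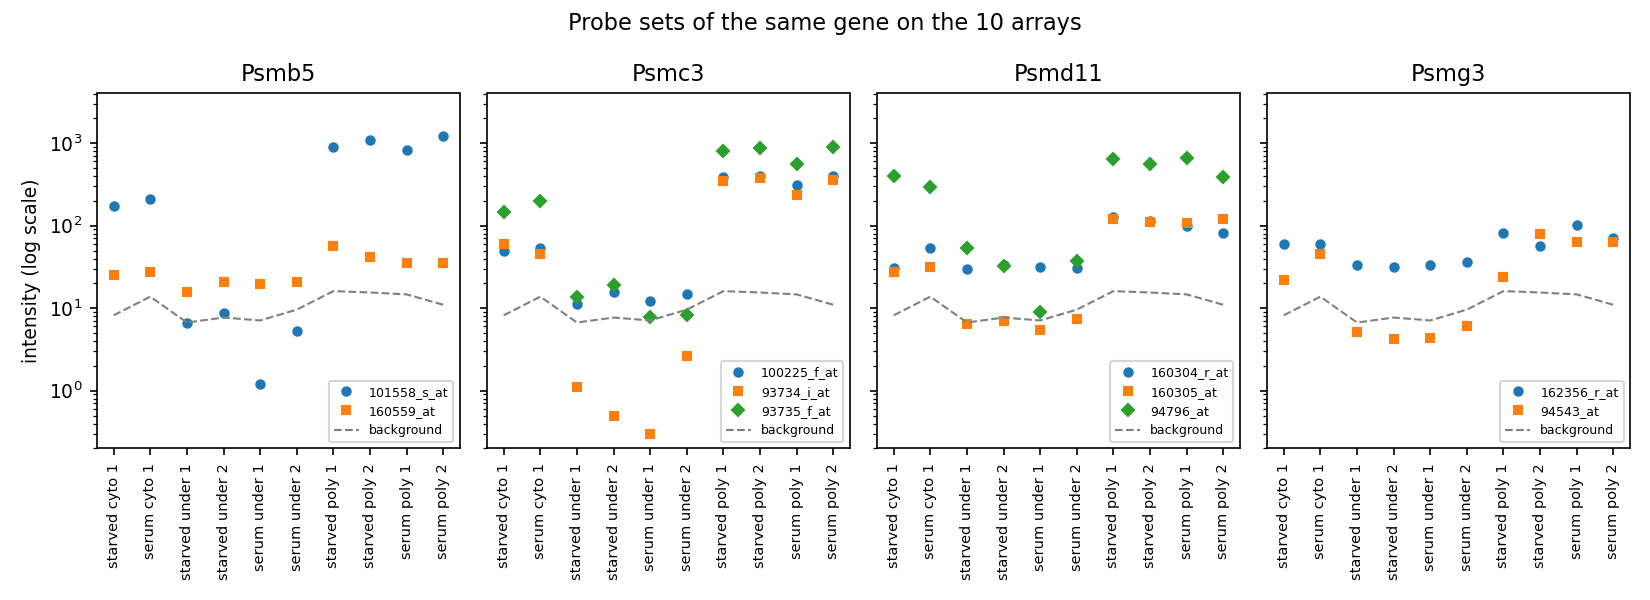
Intensity (vertical axis, log scale) of each probe set of Psmb5, Psmc3, Psmd11 and Psmg3 on the 10 arrays (horizontal axis; cyto, under and poly as the 3 RNA pools); the dashed line is the background of each array. Psmb5 101558_s_at runs from 1.2 to 1222.0, whereas Psmb5 160559_at stays between 15.6 and 56.6.

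The immunoproteasome subunits Psmb8, Psmb9 and Psmb10 had 1 probe set each. Psmb8 read 1.7 and 8.5 (starved) and 1.8 and 9.2 (serum-treated) in undertranslated RNA against 341.1, 275.9, 345.1 and 559.4 in polyribosome RNA, and was higher by 3.24 ± 0.57 (limma adjusted p = 0.00177), with 1 of the 4 undertranslated arrays above background. Psmb10 read 16.7 to 26.0 in undertranslated and 201.2 to 354.9 in polyribosome RNA and differed by -0.11 ± 0.30, which did not pass. Psmb9 was too dim to be tested, with 1.5 to 2.0 in undertranslated, 4.1 and 4.3 in cytoplasmic and 9.5 to 44.6 in polyribosome RNA.

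The ATPases of the regulatory particle had 8 tested probe sets, of which 5 were higher and 1 lower (median 1.24). Psmc1 read 0.4 to 6.8 in undertranslated RNA, above background on none of the 4 arrays, against 392.4, 475.8, 277.1 and 574.2 in polyribosome RNA. Its measured difference of 3.67 ± 0.56 (limma adjusted p = 0.000867) is bounded as at least 5.23-fold, the dim side being set to the lowest signal above background. Psmc3 93734_i_at was likewise below background on the 4 undertranslated arrays and at least 4.26-fold higher in polyribosome RNA. Psmc6 was flat, at -0.01 ± 0.16, and Psmc4 was lower (-1.21 ± 0.45, limma adjusted p = 0.0478) with no intensity above 19.2 and 0.85 on values as deposited.

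Among the non-ATPase subunits, 6 of 13 probe sets were higher and 3 lower (median 0.44). Psmd4, a ubiquitin receptor, read 2.0 and 3.0 (starved) and 1.2 and 1.5 (serum-treated) in undertranslated RNA. It read 1065.5, 1583.8, 974.9 and 1672.8 in polyribosome RNA and 451.4 and 410.1 in cytoplasmic RNA. The undertranslated arrays were thus below background while both other pools were bright. The measured difference was 6.00 ± 0.35 (limma adjusted p = 1.65e-05), bounded as at least 14.5-fold. Psmd13, above background on 1 of 4 undertranslated arrays, was higher by 4.93 ± 0.40 and Psmd7 by 3.75 ± 0.33. Psmd14, the deubiquitinase that clips ubiquitin from substrates, differed by 0.29 ± 0.25 and did not pass, except without serum-treated undertranslated replicate 2 (0.59). Psmd2 read 3.6 to 8.7 in polyribosome RNA, below background on all 4 arrays, and exceeded background on only 1 of 4 undertranslated arrays. Its measured difference was -1.99 ± 0.48, and no fold is given because both pools lay mostly below background.

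Of the chaperones of the base of the regulatory particle, Psmd5 (3.00 ± 0.39) and Psmd10 (0.94 ± 0.33) were higher. Psmd9 was lower at -1.95 ± 0.23 (limma adjusted p = 0.000256), with 41.2 to 54.7 in undertranslated and 161.5 to 223.8 in polyribosome RNA, and was higher by 1.91 on values as deposited. The core activators Psme1 (3.33 ± 0.43), Psme3 (1.94 ± 0.36) and Psme4 (1.44 ± 0.23) were all higher, but Psme3 was below background on the 4 undertranslated arrays and its bound gives no fold. Of the core assembly chaperones, Psmg1 (2.52 ± 0.52) and Psmg2 (3.23 ± 0.50) were higher, each above background on 1 of 4 undertranslated arrays, and Psmg4 (-0.68 ± 0.27) did not pass. Of the genes taken by the pattern alone, Psmc3ip, a recombination factor, differed by 2.06 ± 0.38 with undertranslated values of 1.1 to 2.0, all below background so that no fold is given, and Psme3ip1 by 1.13 ± 0.73.

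Comparison lists gave different splits in the same fit. Cytosolic ribosomal proteins had 10 higher and 15 lower of 38 probe sets (median -0.34), and nuclear-encoded oxidative phosphorylation 24 higher and 26 lower of 85 (median -0.08). The CCT chaperonin, a ring complex that folds actin and tubulin, had 8 higher and 1 lower of 11 (median 1.35). Other proteasome partners and regulators had 10 higher and 8 lower of 27 (median 0.34), and antigen processing genes 9 higher and 4 lower of 17 (median 1.07). Relative to the median of all probe sets, the members stood at 1.11 in this setting and at 1.49 where no scaling was applied or where arrays were centred on their medians or on hybridization controls. In the same order, ribosomal proteins stood at -0.39 and -0.81, the CCT chaperonin at 1.30 and 1.89, partners at 0.29 and 0.47 and antigen processing genes at 1.02 and 1.00, while oxidative phosphorylation turned from -0.13 to 0.39. The settings without scaling and with either centring differ only by a constant per array, so their relative medians are equal by construction. Nfe2l1, which activates proteasome genes when the proteasome is impaired, gave 0.61 ± 0.21 (160535_at) and -1.77 ± 0.33 (101757_at), both passing. Nfe2l2, the oxidative stress factor, was lower at -1.83 ± 0.19, and Sem1, the smallest subunit of the regulatory particle, at -2.64 ± 0.13, but on values as deposited Nfe2l2 was at 2.22, Sem1 at 1.17 and Nfe2l1 101757_at at 0.75. With median centring Nfe2l2 was at -0.24 and did not pass, while Sem1 (-1.29) and Nfe2l1 101757_at (-1.71) still passed as lower. Pomp, the core maturation factor (-0.54), and Usp14, a deubiquitinase of the particle (0.57), did not pass.

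The fraction difference was present in each serum state. In starved cells 19 members were higher and 5 lower (background 28.4%, with 14.9% higher and 13.5% lower; median 0.73), and in serum-treated cells 28 were higher and 6 lower (background 44%, with 23.6% higher and 20.3% lower; median 1.40). The pair of differences used separate arrays. Across the 52 members they correlated with r = 0.887 and rho = 0.874, against r = 0.830 across all 9316 probe sets. These values describe probe sets that share arrays within each state. The starved and serum-treated differences had the same sign in 46 members, or 88.5%, against 82.5% of all probe sets. The starved count rests on its few arrays, since it fell to 5 (7.79% of all probe sets) without starved polyribosome replicate 2, and to 10 without replicate 1 of either starved fraction (13.3% of all without the undertranslated array and 11% without the polyribosome array).

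**Figure D4:**
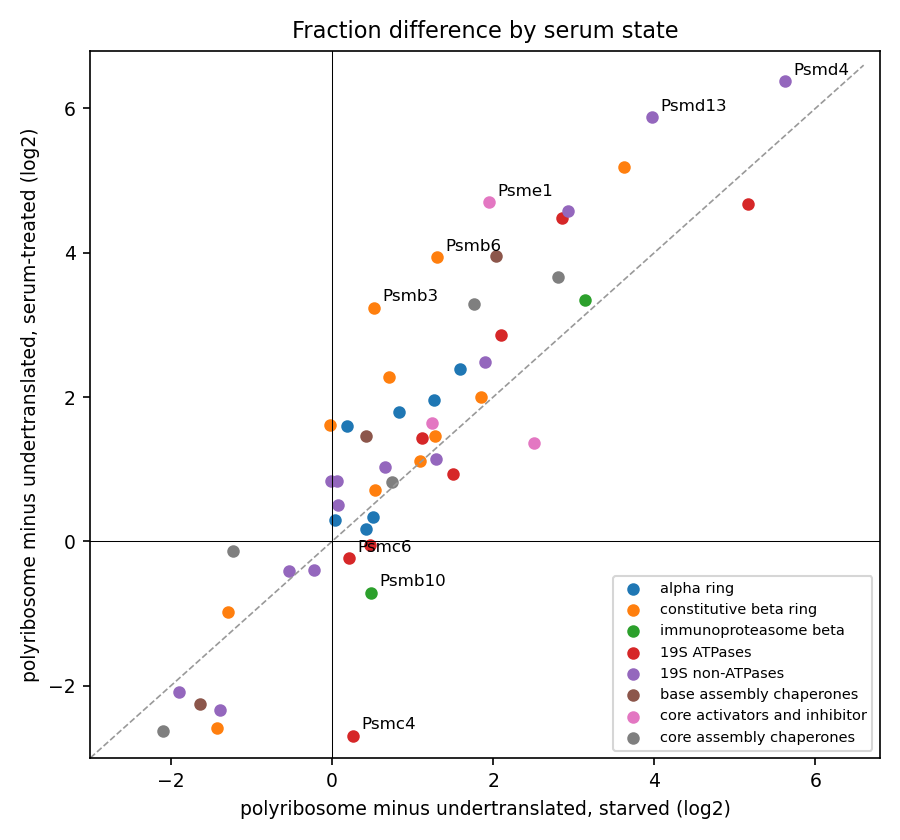
Polyribosome minus undertranslated difference in serum-treated cells (vertical axis, log2) against that in starved cells (horizontal axis, log2) for 52 proteasome probe sets, coloured by role, with the line of equal differences dashed. Psmd4 lies highest in both, and Psme1, Psmb6 and Psmb3 lie above the dashed line.

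Serum for 2 h changed no proteasome mRNA past the threshold. With polyribosome and cytoplasmic arrays together (3 against 3 arrays, limma), 0 of 52 members passed, 3 had an unadjusted p under 0.05 and the smallest adjusted p was 0.364 (background 0.891%, with 0.666% higher and 0.225% lower). The median was -0.07, and the members ranged from -0.54 (Psmc4) to 0.66 (Psmg3 94543_at). Psmb8 read 51.8 (cytoplasmic), 341.1 and 275.9 (polyribosome) in starved cells and 63.6, 345.1 and 559.4 in serum-treated cells. Its serum difference was 0.49 and did not pass. Psmb10 differed by 0.35, Psmd8 by 0.42 and Psmd3 by 0.37, and Psmd10 by -0.53, Psmb1 161923_at by -0.52 and Psmb4 98556_at by -0.41. In the same fit 7 of 13 tested macrophage marker probe sets were higher (median 1.40), and the summed intensity of the 22 on the array was 1476.3 and 1784.5 in starved against 4451.4 and 5706.6 in serum-treated polyribosome RNA. Their part in the values of Psmb8 and Psmb10 was not tested. Fewer cells of a type and less RNA per cell cannot be told apart in such pooled samples.

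In polyribosome RNA alone 0 members passed and 0 had an unadjusted p under 0.05 (background 0%; median -0.05). In undertranslated RNA 0 passed and 15 had an unadjusted p under 0.05 (background 1.07%, with 0.29% higher and 0.784% lower; limma). There 36 of 52 lay below 0, with a median of -0.46. Psme1 read 11.1 and 18.5 in starved and 1.0 and 5.5 in serum-treated cells, a difference of -2.56 (limma adjusted p = 0.0841). Psmb3 differed by -2.49 and Psmb6 by -2.45, and Psmc4 by 2.21. Serum-treated undertranslated replicate 1 was the array with the lowest members, and without replicate 2 of that group, which leaves replicate 1 alone, 26 members passed (6 higher, 20 lower; 24.7% of all probe sets passed). Without replicate 1, a single member passed, against 4.72% of all.

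With the gradient fractions averaged, 0 members passed and 8 had an unadjusted p under 0.05 (limma; background 0%; median -0.26), and 16 passed without serum-treated undertranslated replicate 2 (13.4% of all). The interaction, the test of whether the fraction difference depended on serum, passed in 0 members and reached an unadjusted p under 0.05 in 6 (limma; background 0%; median 0.35), and 11 passed without that replicate (9.69% of all). In the cytoplasmic pair, with 1 array each and no test, the median difference was -0.12, and 1 of 52 members, Psmb4 98556_at at -1.50, lay past 1 log2 unit (background 12.1%, with 5.76% higher and 6.33% lower).

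**Figure D5:**
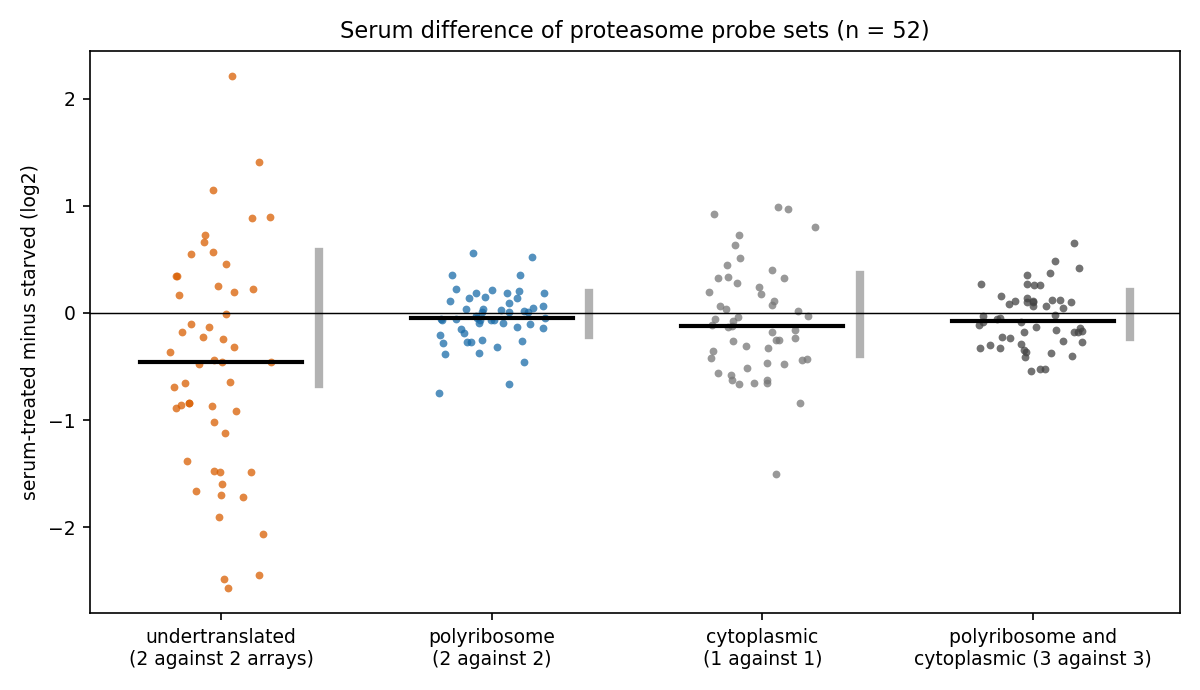
Serum-treated minus starved difference (vertical axis, log2) of 52 proteasome probe sets in each RNA pool and in the polyribosome and cytoplasmic arrays together (horizontal axis, with arrays per side). Points are probe sets, black bars are medians and grey bars span the lower to the upper quartile of all 9316 probe sets; the median is -0.46 in undertranslated RNA and -0.05 in polyribosome RNA.

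Against cytoplasmic RNA, polyribosome RNA had 24 members higher and 7 lower (limma, 6 arrays; background 26.5%, with 14.5% higher and 12% lower; median 0.51). Psmd14 was higher by 1.63 (limma adjusted p = 0.00077), while Psmb1 161923_at, below background on both cytoplasmic arrays, was bounded as at least 1.05-fold higher (measured difference 1.92). Psme3, the activator of the nuclear proteasome, was lower in polyribosome RNA. It read 152.5 and 180.6 in cytoplasmic, 62.6, 41.8, 41.7 and 54.6 in polyribosome and 1.0 to 3.0 in undertranslated RNA. Both gradient pools were thus below the cytoplasmic pool, by -2.61 (limma adjusted p = 0.00028) for polyribosome RNA. The count of 31 fell to 12 without starved cytoplasmic RNA (14.1% of all) and to 5 without serum-treated cytoplasmic RNA (3.78% of all). With median centring all 24 higher calls but only 3 of the 7 lower ones were kept (26.4% of all called). On values as deposited 45 members were higher and 1 lower (76.8% of all). With hybridization control centring 18 were higher and 5 lower (20.9% of all).

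Undertranslated RNA had 6 members higher and 12 lower than cytoplasmic RNA (limma; background 30.2%, with 14.3% higher and 15.9% lower; median -0.54). Psmd4 was lower by -6.03, at least 14.8-fold, and Psme3 at least 5.86-fold. On values as deposited 42 members were lower and none higher (58.9% of all probe sets called), and with median centring 29 were lower and none higher (45% of all). The count fell to 8 without starved (11.5% of all) and to 2 without serum-treated cytoplasmic RNA (5% of all), and to 10 without starved undertranslated replicate 1 (19.1% of all).

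The genes outside the members whose 6 group means were most like the member median, among the 3182 probe sets that exceeded background on each of the 10 arrays, were Laptm4a (r = 0.998), Ddx1 (r = 0.998) and Scd2 (r = 0.997), over 6 groups.

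The promoters of the members were searched for shared letters in RefSeq sequence (GRCm38.p6, 250 bases before to 50 after the annotated start), which held 37 of the 44 genes. Any link of these letters to the fraction difference was not tested. In all 7 patterns were searched, the 6 motifs on both strands, and none was chosen independently of these data. TGACNNNGC, the core of the antioxidant response element through which Nfe2l1 and Nfe2l2 act, was in 6 of 37 members (16.2%) against 16.9% of genes on the array. The looser TGANNNNGC, which contains it, was in 21 (56.8% against 47.4%), CCAAT in 13 (35.1% against 42.5%) and TATAAA in 4 (10.8% against 12.2%). The letters CCGGAAGT, an ETS factor motif, were in 9 (24.3% against 7.8%), and the palindromic nuclear respiratory factor motif, with 1 free base, in 7 (18.9% against 9.96%). Of 62 ribosomal protein genes, 12 (19.4%) held CCGGAAGT and 5 (8.06%) the respiratory factor motif, so a raised CCGGAAGT share was not particular to the members. A C and 4 pyrimidines at the annotated start, as in the terminal oligopyrimidine mRNAs, occurred in 0 of 37 members, against 14 of 62 ribosomal protein genes (22.6%) and 2.95% of genes on the array. The stretches below hold TGACNNNGC in capitals and show the member matches within 60 bases of the start: Psmb5 (chr14:54618008-54618067, minus strand), Psmb6 (chr11:70525297-70525356, plus strand), Psmd9 (chr5:123228130-123228189, plus strand) and Psme4 (chr11:30771717-30771776, plus strand, match on the other strand). The other matches were in Psmc6 and Psmd12, 227 and 247 bases before the start.
Psmb5: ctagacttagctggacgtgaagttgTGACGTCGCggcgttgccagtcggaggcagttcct
Psmb6: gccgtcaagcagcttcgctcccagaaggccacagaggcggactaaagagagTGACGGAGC
Psmd9: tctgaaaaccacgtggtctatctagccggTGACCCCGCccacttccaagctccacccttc
Psme4: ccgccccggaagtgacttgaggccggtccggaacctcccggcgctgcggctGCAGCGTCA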

How the data were processed

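The authors deposited 1 table of linear intensities, 12488 probe sets by 10 arrays, with their summarisation and scaling not given in the sources used here. Array medians differed by 2.95 on the log2 scale. Intensities were transformed as log2(intensity + 1.5) and quantile normalized over all arrays in R 4.3.3. Control probe sets (66) and those with a mean level at or under the 25th percentile were left out, which left 9316, 52 of them proteasome members. Differences were tested with limma 3.58.1 (lmFit, eBayes with trend, two-sided, Benjamini-Hochberg at 0.05), on the 8 gradient arrays (4 residual degrees of freedom) or on 6 arrays with pool and serum state as additive terms (3). The small number of arrays limits precision. The scripts were tested on simulated data. Of 12422 probe sets, 10833 had 1 gene symbol, 396 several and 1193 none.

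Named probe sets were the 4 largest differences each way in the averaged fraction and 6-array serum comparisons, the brightest and dimmest, the catalytic and immunoproteasome subunits and genes whose probe sets disagreed; others were added after their values were seen. A bound sets the dim side to the lowest signal above background. The members and lists were chosen with earlier results of these data known. Replicate 2 marks thiouridine cultures in every gradient group, and deviations of same-numbered arrays correlated with r = 0.0167 to 0.275. Alternatives were other scalings, pseudocounts, filters, variance models, a replicate block and leaving out each array. Restricting to probe sets above background on all 8 gradient arrays, quantile normalization without control probe sets, and the oxidative phosphorylation list without assembly factors were added after seeing the data.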

Additional observations from a re-analysis of the deposited data

How the results depend on the processing

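Of the 7 lower polyribosome calls, none was kept on values as deposited or with hybridization control centring and 5 were with median centring. All 30 higher calls were kept in those 3 settings, where 92.3%, 95.4% and 68.1% of all probe sets were called. The first 2 settings cannot test the direction of a call, since the median of all probe sets moved to 3.02 and 3.33. The member median relative to all probe sets was 1.11, and 1.49 in each of the 3. Those 3 values are equal by construction, because the settings differ only by a constant per array, and count as 1 result. On values as deposited and with hybridization control centring, respectively, Psmb10 gave 3.53 and 3.84 (1.07 with median centring), Psmc6 3.72 and 4.04 (1.26), Psmb4 98556_at 0.67 and 0.98, Psmb5 160559_at 1.06 and 1.37, Psmd11 160304_r_at 1.69 and 2.00, Psmd9 1.91 and 2.22 and Psmg3 162356_r_at 1.12 and 1.44, all turned from below to above 0 as the median of all probe sets moved to 3.02 and 3.33. Psmd1 turned likewise, from -0.47 to 3.71 and 4.02, and with median centring it passed as higher at 1.24. With hybridization control centring the serum differences of Psmd3 and Psmd8 turned to -0.0119 and -0.0179. Leaving out 1 array gave ranges that crossed 0 for Psmb10 (-0.34 to 0.11), Psmc6 (-0.17 to 0.15), Psmb7 (-0.15 to 1.74), Psmd11 94796_at (-0.066 to 0.95), Psmd14 (-0.00985 to 0.59) and the serum difference of Psmb4 98556_at (-0.811 to 0.135). Called members in the starved fraction comparison, 24 (28.4%), became 51 on values as deposited (86%), 51 with hybridization control centring (92.9%) and 40 with median centring (48.4%). Undertranslated minus cytoplasmic calls, 18 (30.2%), became 42 (58.9%), 52 (96.8%) and 29 (45%) in that order and 11 (24.1%) without the variance trend. The percentages are the shares of all probe sets called, which also moved when 1 array was left out. Leaving out 1 array gave 5 to 31 calls (starved fraction), 18 to 41 (serum-treated fraction), 29 to 44 (averaged), 0 to 26 (serum in undertranslated RNA), 0 to 16 (serum averaged), 0 to 11 (interaction), 5 to 31 (polyribosome minus cytoplasmic) and 2 to 25 (undertranslated minus cytoplasmic).

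The alternatives added after seeing the data are given in full. The oxidative phosphorylation list without assembly factors gave a median of -0.18 (24 higher, 26 lower of 80) against -0.08 with them. Restricted to probe sets above background on all 8 gradient arrays, 27 members were left and 18 passed in the averaged fraction comparison (12 higher, 6 lower, 69.3% of all). In starved cells 11 passed (6 higher, 5 lower, 50.7% of all) and in serum-treated cells 15 (11 higher, 4 lower, 60.3% of all). The called share of the 27 was below that of all probe sets in each comparison. Members dim in undertranslated RNA drop out by construction. Quantile normalization without control probe sets gave 36 (29 higher, 7 lower, 54.2% of all), 24 (28.3% of all) and 34 (43.9% of all). With the replicate block the averaged comparison gave 38 calls, all 37 earlier ones kept, and no count moved by over 1.5 times. The causes of these changes were not tested, apart from that construction.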

Other observations

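Replicate 2, from cultures given 4-thiouridine, had the higher median member level in each gradient group. The median difference of replicate 2 minus replicate 1 over 52 members was 0.23 in starved undertranslated, 0.51 in serum-treated undertranslated, 0.13 in starved polyribosome and 0.30 in serum-treated polyribosome RNA, against -0.01 to 0.04 for all probe sets. Members were higher in replicate 2 in 33, 28, 33 and 38 of 52 probe sets. In a limma fit of the 8 arrays with group and replicate number as terms, added after seeing the data, 0 of 52 members passed (0% of all probe sets) and 6 had an unadjusted p under 0.05 (smallest adjusted p = 0.694), with a median of 0.22 against 0.01 for all probe sets and 38 of 52 above 0.

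The dimmest members were at background in every pool. Psmb4 98558_r_at read 0.2 to 2.2 and Psme1 161293_r_at 1.1 to 7.9, whereas Psmb4 98557_f_at (46.2 to 4874.6) was bright on every array and Psme1 101510_at (1.0 to 803.3) on polyribosome and cytoplasmic arrays. Psmb4 98556_at, at 2.1 to 13.8, exceeded background on 3 of 10 arrays.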
